A study of Rhagoletis pomonella with 50 samples.

Results

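The 200 longest expressed transcripts of the pupal central nervous system (CNS) of Rhagoletis pomonella, a fruit fly that infests apple and hawthorn, were followed across both hosts and 5 stages of diapause. A feature, meaning 1 gene identifier of the annotation, counted as expressed when its estimated count reached 10 in at least 25 of the 50 libraries. This held for 12119 of 29399 features, and the 200 with the largest mean length over the libraries form the set, which is 1.65% of the expressed features. The rule reads length and presence, not the comparison of hosts or months.

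The groups were pupae from apple or from hawthorn fruit collected in the field in a single year, at a diapause age of 2, 3, 4, 5 or 6 months, with 5 libraries per host and month. All groups share the same handling: larvae had 10 days at about 24 °C to pupate, and the pupae then stayed at 3.5 °C in humid air (95%), so there is no unchilled control. Each library comes from polyadenylated RNA of 10 pooled CNS, so individual flies are not resolved and sexes are not given. P-values therefore measure the spread between pools, and in pooled bulk tissue fewer cells of a type and less RNA per cell cannot be told apart. Libraries held 8718271 to 30540959 estimated counts (median 14615585), and the 2 hawthorn libraries of replicates 2 and 4 at 4 months stood apart from the rest of their group. Flow cell lanes, read from the deposited names, were spread unevenly over the groups, and apple at 2 and at 6 months shared no lane.

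Diapause is a programmed arrest of development that lets an insect pass the winter, and in Rhagoletis it is ended by a long chill before adult development resumes in spring. The host races differ in the season of their fruit and in the timing of adult emergence. In animals, very long transcripts include those for giant structural, adhesion and cytoskeletal proteins and for ion channels. In libraries made by poly(A) selection, a broken molecule keeps only the piece that still carries its tail, so long transcripts are the most exposed to breakage. RNA integrity was not analysed here, and its part in the results was not tested. The identifiers come from the genome of the related species Rhagoletis zephyria, and the deposited tables pair none of them with a gene name. None of the 200 matched the reference gene table used here, so members are given by identifier, without a function and without sequence.

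The members were 7625 to 61363 bp long, with a median of 9366 bp, against a median of 1709 bp in the other 11919 expressed features. The last members inside the rule measured 7630 and 7625 bp, and the first features outside it measured 7610 and 7609 bp. Of the 200, 85 exceeded 10 kb and 5 exceeded 20 kb. The length is the authors' abundance-weighted mean over a feature's transcripts, and in 11 members it varied by more than 10% between libraries. Annotated transcripts numbered 1 in 101 members (50.5%) and in 70.7% of the other expressed features, and 1 member had 29. Most members had reads throughout the series: 182 had at least 10 counts in every library, and the least widespread had them in 28. The rule asks for 10 counts in at least 25 libraries, so wide presence is partly built in. No matching count is given for the other expressed features.

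Per unit of length the typical member was scarcer than the typical other feature. Their median mean level was 2.88 TPM (transcript abundance corrected for length), against 5.35 TPM in the others, and 42.0 against 75.03 counts per kb. Their mean levels ran from 0.065 to 112 TPM, with 39 members at 10 TPM or more and 52 under 1 TPM. Of the other 11919 expressed features, 4326 were at 10 TPM or more and 1678 under 1 TPM. The count floor of the rule is not scaled to length, so it lets in long features at lower levels per length than short ones. How much of the difference follows from the rule was not tested. The set made up 7.97% of the summed length of the expressed features and 1.35% of all counts. The 10 members with the most counts carried 37.1% of the counts of the set.

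**Figure D1:**
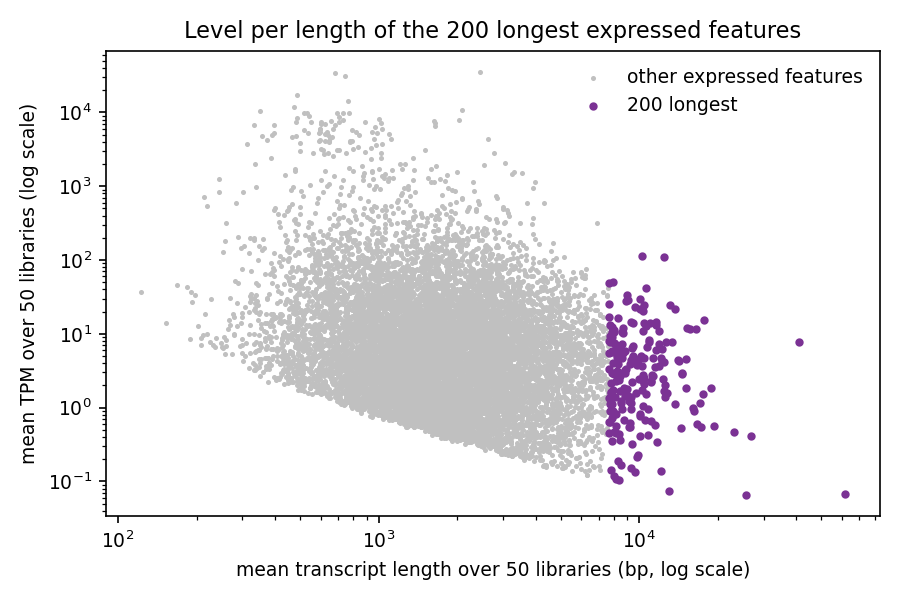
Mean TPM against mean length for each expressed feature, both axes on a log scale and both means over 50 libraries. The 200 members (purple) begin at 7625 bp and reach no further than 112 TPM, while the other features (grey) reach 35404 TPM.

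The 3 members with the most counts per kb were gene1209, gene1476 and gene4121. Mean levels were 112 TPM for gene1209, 109 TPM for gene1476 and 50.9 TPM for gene4121. Their lengths were 10283, 12394 and 7963 bp. From 2 to 6 months gene1209 fell, while the group means of gene1476 and gene4121 rose in both hosts. In CPM (counts scaled to library size), gene1209 stood at 1172, 1366, 1006, 1178 and 1138 in the 5 apple libraries at 2 months and at 1028, 876, 768, 752 and 747 at 6 months. In hawthorn, gene1209 went from 1431, 1410, 1331, 1269 and 1321 CPM to 887, 1016, 991, 776 and 765 CPM. The hawthorn groups did not overlap, while in apple the highest library at 6 months lay above the lowest at 2 months, and gene1209 fell in both hosts (log2 fold change −0.49 ± 0.12 (SE), adjusted p = 0.00254 in apple and −0.61 ± 0.12, adjusted p = 0.000133 in hawthorn).

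In gene1476 the hawthorn libraries read 1092, 1201, 1064, 920 and 1058 CPM at 2 months and 1718, 1580, 1665, 1725 and 1245 CPM at 6 months, without overlap. It rose in hawthorn (0.57 ± 0.14, adjusted p = 0.0029), and in apple the change of 0.38 ± 0.14 missed the threshold (adjusted p = 0.0654). The third, gene4121, was lower in apple than in hawthorn as a mean over the 5 months (log2 difference −0.50 ± 0.08, adjusted p = 1.17e-05). At 2 months gene4121 read 247, 319, 227, 145 and 182 CPM in apple and 411, 408, 374, 322 and 405 CPM in hawthorn. Every hawthorn library at 2 months lay above every apple library. From 2 to 6 months the mean of gene4121 went from 224 to 368 CPM in apple and from 384 to 535 CPM in hawthorn. The call on its hawthorn rise was lost in 6 of 10 fits that left out 1 library (adjusted p up to 0.103).

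The 5 longest members were gene1450 (61363 bp), gene978 (40865 bp), gene2672 (26880 bp), gene14361 (25769 bp) and gene3791 (23020 bp). Of these, gene978 was the only one above 1 TPM, at 7.85 TPM, and the others lay between 0.065 and 0.466 TPM. In gene978 the change from 2 to 6 months was 0.18 ± 0.14 in apple (adjusted p = 0.428) and 0.23 ± 0.14 in hawthorn (adjusted p = 0.261). The longest, gene1450, ranged from 1.54 to 11.3 CPM over the series, and its log2 change from 2 to 6 months was −0.32 ± 0.43 in apple and −0.31 ± 0.44 in hawthorn (adjusted p = 0.675 and 0.669). For gene14361 the corresponding values were 0.23 ± 0.36 and 0.53 ± 0.38 (adjusted p = 0.727 and 0.342). In gene2672 the change was −0.51 ± 0.20 in apple (adjusted p = 0.0774), and in hawthorn it fell by 0.68 on the log2 scale (SE 0.20, adjusted p = 0.0124). Without hawthorn replicate 5 at 2 months the value for gene2672 in hawthorn was −0.57 (adjusted p = 0.0502).

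Members gene1450 and gene3791 were often high in the same pools. The pattern was picked after the values were seen and is given as a description. In apple at 3 months gene1450 read 1.62, 9.49, 3.68, 2.83 and 7.67 CPM and gene3791 read 7.27, 29.8, 9.55, 11.50 and 23.6 CPM, so that replicates 2 and 5 were the highest for both. In hawthorn at 3 months gene1450 read 3.69, 11.3, 5.18, 5.14 and 1.61 CPM and gene3791 read 9.78, 25.5, 15.1, 17.0 and 7.98 CPM, with replicate 2 the highest and replicate 5 the lowest for both. The same library was the highest of its group for both members in 7 of the 10 groups. The exceptions were apple at 2, 4 and 6 months.

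Library by library, the members moved with the rest of the long features. For each library, the deviation of a feature is its log2 CPM minus its own mean over the 50 libraries, and the length slope is the line of these deviations on log2 length over the features outside the set. The median deviation of the members ranged from −0.59 to 0.31 over the libraries, with an SD of 0.187. Its sign matched the sign of the length slope in 42 of 50 libraries. Over the 50 libraries, which share their depth and scaling factors across features, the correlation of a member's log2 CPM with the slope had a median of 0.492 and was positive in 188 of 200 members. For the longest length decile of the other features (1187 features, median 5124 bp) that median was 0.440, with 93.3% positive, and for all other features it was 0.0622, with 55.0% positive. The slope was fitted on these other features and not on the members, so the correlations of the long other features are partly built in.

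The spread of the members between pools was like that of the other long features. The SD of log2 CPM within a group had a median of 0.261 over the members, 0.282 over the longest length decile of the others and 0.371 over all others. Mean log2 CPM, which bears on this spread, had medians of 4.58, 3.84 and 2.42 in the same order.

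The straight line overstated the members. In 37 of 50 libraries their median deviation was smaller in size than the line at their lengths, and the profile flattened at the long end in hawthorn and bent in apple at 2 months. The longest length decile of the other features was the closer yardstick. Subtracting its median left the members with an SD of 0.0466 over the 50 libraries, against 0.187 before. Within groups the pooled SD was 0.0354 after and 0.148 before. The members lay below that decile in 27 of 50 libraries.

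**Figure D2:**
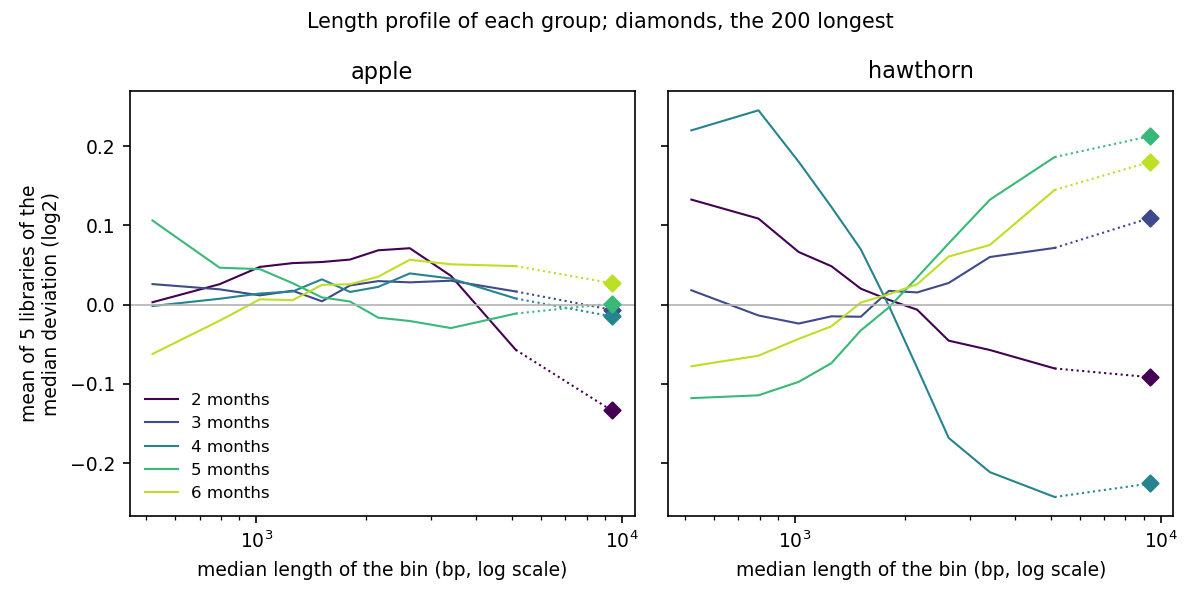
Mean over 5 libraries of the median deviation (log2 units) in each length decile of the features outside the set, by host and month, against the median length of the decile on a log scale. Diamonds, joined by dotted lines, show the 200 members, which sit at −0.13 in apple at 2 months, at −0.23 in hawthorn at 4 months and at 0.21 in hawthorn at 5 months, near the end of each line.

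By group, the members' median deviation in apple was −0.13 ± 0.13 (SD, n = 5) at 2 months, −0.01 ± 0.08 at 3, −0.01 ± 0.10 at 4, 0.00 ± 0.17 at 5 and 0.03 ± 0.12 at 6 months. In hawthorn it was −0.09 ± 0.10, 0.11 ± 0.09, −0.23 ± 0.29, 0.21 ± 0.08 and 0.18 ± 0.18 in the same order. The 5 hawthorn libraries at 4 months read 0.20, −0.37, −0.27, −0.59 and −0.11, so the group spanned most of the range of the series. Replicates 2 and 4 there had the steepest slopes of the series, −0.29 and −0.28, and the members held 0.627% and 0.593% of their counts, against 0.970% to 1.76% elsewhere. Without these libraries the hawthorn mean at 4 months was −0.06 ± 0.23 (n = 3).

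After the longest length decile was subtracted, the group means in apple were −0.08 ± 0.05, −0.02 ± 0.02, −0.02 ± 0.04, 0.01 ± 0.02 and −0.02 ± 0.03 from 2 to 6 months. In hawthorn they were −0.01 ± 0.02, 0.04 ± 0.02, 0.02 ± 0.06, 0.03 ± 0.03 and 0.04 ± 0.03. Apple at 2 months stood lowest, with single libraries at −0.12, −0.03, −0.02, −0.10 and −0.12, all below the decile. Hawthorn at 3 months was above it in all 5 libraries, at 0.04, 0.07, 0.05, 0.01 and 0.03. These scores are summaries over the members and carry no test.

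**Figure D3:**
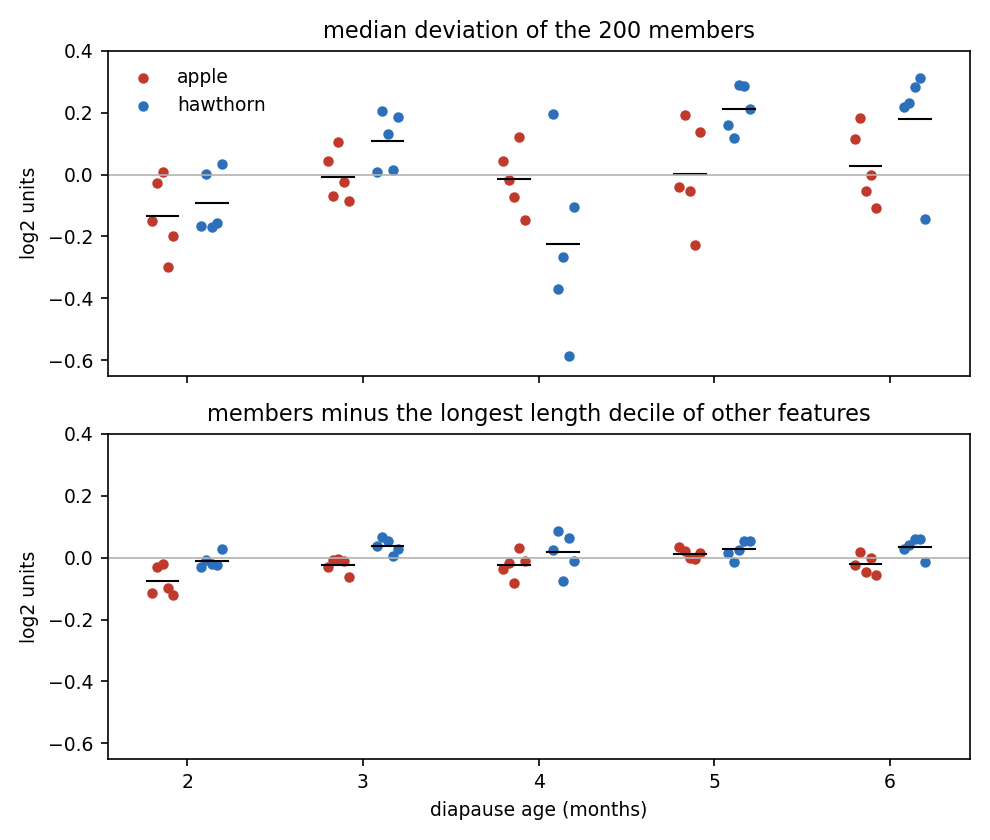
Each point is 1 library and each bar the mean of 5; the upper panel gives the median deviation of the 200 members (log2 units), the lower panel the same after subtracting the longest length decile of the other features, on the same axis. The spread narrows from an SD of 0.187 to 0.0466, and after the subtraction apple at 2 months is the lowest group, at −0.08.

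From 2 to 6 months of diapause more members rose than fell in each host, a split that turned in hawthorn under 2 of the treatments of the length trend given below. In apple 69 of the 200 passed the test, 53 higher and 16 lower at 6 months, against 15.6% of the 13862 features tested (9.37% higher and 6.24% lower). In hawthorn 80 passed, 65 higher and 15 lower, against a background of 20.8% (12.1% higher and 8.73% lower). As shares of the set these are 26.5% higher and 8.0% lower in apple, and 32.5% and 7.5% in hawthorn. The median log2 change of the members was 0.18 in apple and 0.23 in hawthorn, and over all features tested −0.02 in both.

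The longest length decile of the other features lay near these shares. In apple 20.1% of it was higher and 8.34% lower at 6 months, and in hawthorn 27.3% was higher and 5.73% lower. In the shortest decile the shares were 4.18% and 4.11% in apple and 4.83% and 10.96% in hawthorn. The decile trend of a library joins the decile medians of the other features and is flat beyond 5124 bp. That is the median length of the longest decile, and every member is longer, at 7625 bp or more. Any trend beyond 5124 bp therefore stays in the values with the decile trend removed. When the decile trend of the other features was removed from every library, an alternative added after the data had been seen, 77 members passed in apple (51 higher, 26 lower, with a background of 17.4%, 10.4% higher and 6.92% lower). In hawthorn 91 passed (54 higher, 37 lower, with a background of 21.7%, 11.4% higher and 10.3% lower). Of the 1187 features in the longest length decile of the others, 219 were then higher and 166 lower in apple. In hawthorn 238 of them were higher and 195 lower. The median change of the members was then 0.08 in apple and −0.00019 in hawthorn. The split of calls moved from 53 to 16 to 51 to 26 in apple, and from 65 to 15 to 54 to 37 in hawthorn. With a straight length trend removed from every library the calls were 43 higher and 28 lower in apple but 41 higher and 56 lower in hawthorn (backgrounds 16.6% and 21.5%), with member medians of 0.02 and −0.14. With a smooth trend, in whose fit the members take part, they were 42 and 35 in apple and 47 and 52 in hawthorn (backgrounds 17.1% and 22%), with medians of −0.05 and −0.10.

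**Figure D4:**
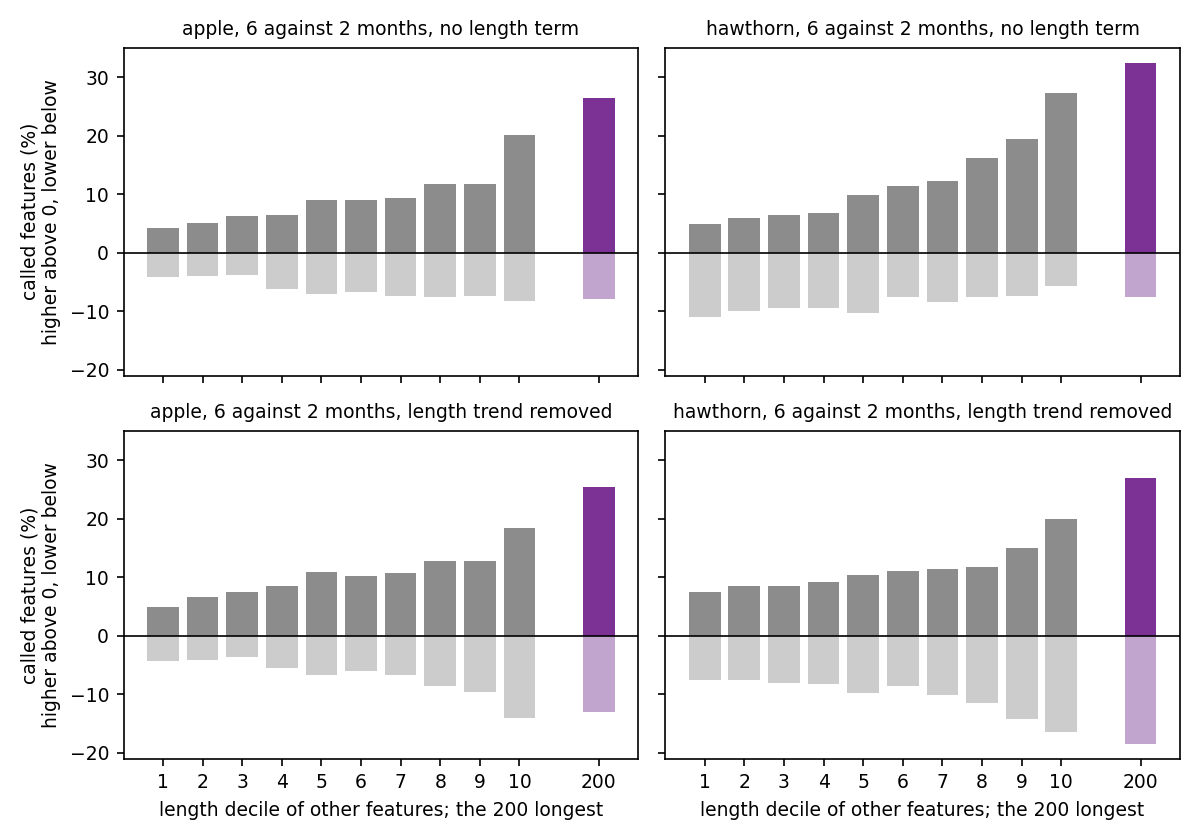
Share of features called at 6 against 2 months, higher (above 0) and lower (below 0), in the 10 length deciles of the other features (grey) and in the 200 members (purple), for each host, without and with the decile length trend removed. Without it the members reach 26.5% higher in apple and 32.5% in hawthorn, and with it 13.0% and 18.5% of them are lower.

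The apple and hawthorn comparisons share no library, and they overlap in the members called. Of the 53 members that rose in apple, 51 (96.2%) also rose in hawthorn, which is 78.5% of the 65 there. Of the 16 that fell in apple, 11 (68.8%) fell in hawthorn, or 73.3% of the 15. No member rose in one host and fell in the other. Such opposite calls were also rare in the whole table, with 0 rising in apple and falling in hawthorn and 1 the reverse. Over all features tested, 954 rose in both hosts, which is 73.4% of the 1299 in apple and 56.8% of the 1680 in hawthorn, and 494 fell in both (57.1% of 865 and 40.8% of 1210). In the longest length decile of the other features 207 rose in both, or 87.0% of the 238 in apple and 63.9% of the 324 in hawthorn. In that decile 52 fell in both, or 52.5% of the 99 in apple and 76.5% of the 68 in hawthorn. Whether the members overlap more than other features was not tested. With the decile trend removed, 47 members rose in both hosts (92.2% of those in apple and 87.0% in hawthorn) and 21 fell in both (80.8% and 56.8%). Over all features tested 974 then rose in both (67.3% and 61.5%) and 619 fell in both (64.5% and 43.5%). In the longest length decile of the others the counts were 169 (77.2% and 71.0%) and 123 (74.1% and 63.1%). Of the 51 and 47 that rose in both without and with the trend removed, 46 were shared, and all 11 that fell in both were among the 21.

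No member passed the test for a host difference in this change (edgeR; 5 of 200 at an unadjusted p under 0.05, and 0 called with DESeq2). Over all features the count was also 0 with edgeR (background 0.0%), and 632 of 13862 were at an unadjusted p under 0.05. The median of the difference over the members, apple change minus hawthorn change, was −0.06. Its sign depended on the processing: it was 0.06 with the decile trend removed, 0.13 with the straight trend and −0.20 with lane as a term.

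The course between the end points was uneven. Relative to 2 months, the median log2 difference of the members in apple was 0.17 at 3, 0.13 at 4, 0.08 at 5 and 0.17 at 6 months, with 142, 126, 122 and 130 members above 0. In hawthorn it was 0.19, −0.17, 0.25 and 0.24, with 159, 70, 150 and 134 members above 0. The longest length decile of the other features had an uneven course too. Its mean deviations from 2 to 6 months were −0.06, 0.02, 0.01, −0.01 and 0.05 in apple. In hawthorn they were −0.08, 0.07, −0.24, 0.19 and 0.14. The dip at 4 months in hawthorn contains the replicates 2 and 4 described above.

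Calls were spread over the whole set. Among the 50 longest members, from 11473 bp upward, 15 rose and 5 fell in apple, and 18 rose and 5 fell in hawthorn. Among the 50 shortest, up to 8197 bp, 13 rose and 4 fell in apple and 14 rose and 5 fell in hawthorn. Members with 1 annotated transcript were called in 34.7% of cases in apple and 39.6% in hawthorn, and those with more in 34.3% and 40.4%.

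Among called members above the level minimum (log2 CPM 1), the largest rises in both hosts belonged to gene8738 and gene15674. For gene8738 (12495 bp, 1.66 TPM) the apple libraries read 7.92, 9.22, 14.8, 5.78 and 6.59 CPM at 2 months and 26.0, 33.4, 24.3, 32.0 and 26.7 CPM at 6 months. The hawthorn libraries read 9.16, 10.8, 6.05, 6.25 and 10.8 CPM at 2 months and 40.0, 38.9, 43.7, 43.0 and 29.5 CPM at 6 months. The groups did not overlap in either host. The rise in gene8738 was 3.20-fold in apple (log2 1.68 ± 0.19, adjusted p = 5e-08) and 4.50-fold in hawthorn (2.17 ± 0.20, adjusted p = 1.76e-10). With the decile trend removed, the log2 changes of gene8738 were 1.59 ± 0.16 and 1.94 ± 0.17.

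For gene15674 (10566 bp, 0.671 TPM) the apple libraries went from 2.48, 2.57, 2.67, 1.24 and 1.72 CPM to 6.28, 10.9, 8.36, 16.6 and 5.24 CPM. The hawthorn libraries went from 4.70, 5.17, 2.14, 2.00 and 3.34 CPM to 10.8, 13.3, 17.95, 15.5 and 8.47 CPM. Every library at 6 months exceeded every library at 2 months of its host. The log2 change of gene15674 was 2.13 ± 0.31 in apple (adjusted p = 2.24e-06) and 1.91 ± 0.31 in hawthorn (adjusted p = 7.65e-06), and 2.05 and 1.68 with the decile trend removed. Counts of gene8738 and gene15674 were not whole in 94% and 90% of the libraries, so part of their reads was shared out by the authors' program between features of similar sequence.

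The largest falls among the called members were those of gene3791 and gene231 in hawthorn and of gene2692 and gene231 in apple. For gene231 (17792 bp, 19 transcripts, 15.4 TPM) the apple libraries read 314, 372, 288, 316 and 320 CPM at 2 months and 198, 181, 190, 190 and 162 CPM at 6 months. The hawthorn libraries read 361, 368, 364, 350 and 402 CPM at 2 months and 172, 204, 183, 180 and 159 CPM at 6 months. The groups lay far apart in both hosts, with log2 changes for gene231 of −0.81 ± 0.10 in apple (adjusted p = 2.72e-07) and −1.04 ± 0.10 in hawthorn (adjusted p = 1.12e-09). With the decile trend removed they were −0.91 and −1.27.

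For gene3791 the hawthorn libraries read 8.02, 12.3, 16.1, 9.56 and 25.9 CPM at 2 months and 8.19, 5.53, 5.85, 4.05 and 5.20 CPM at 6 months. The groups touch, since the highest library at 6 months lay above the lowest at 2 months. The log2 change of gene3791 in hawthorn was −1.32 ± 0.40 (adjusted p = 0.0146), and −0.996 (adjusted p = 0.0785) without hawthorn replicate 5 at 2 months. In apple gene3791 changed by −0.95 ± 0.40 (adjusted p = 0.0962). For gene2692 the apple libraries went from 5.20, 3.41, 6.00, 6.17 and 3.803 CPM to 4.52, 2.64, 1.70, 2.46 and 2.59 CPM. These groups overlap through replicate 1 at 6 months. The log2 change of gene2692 in apple was −0.82 ± 0.27 (adjusted p = 0.0302), and 7 of the 10 fits that left out 1 library of these groups lost the call, with an adjusted p of up to 0.0968: those without apple replicate 1, 3 or 4 at 2 months or replicate 2, 3, 4 or 5 at 6 months.

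**Figure D5:**
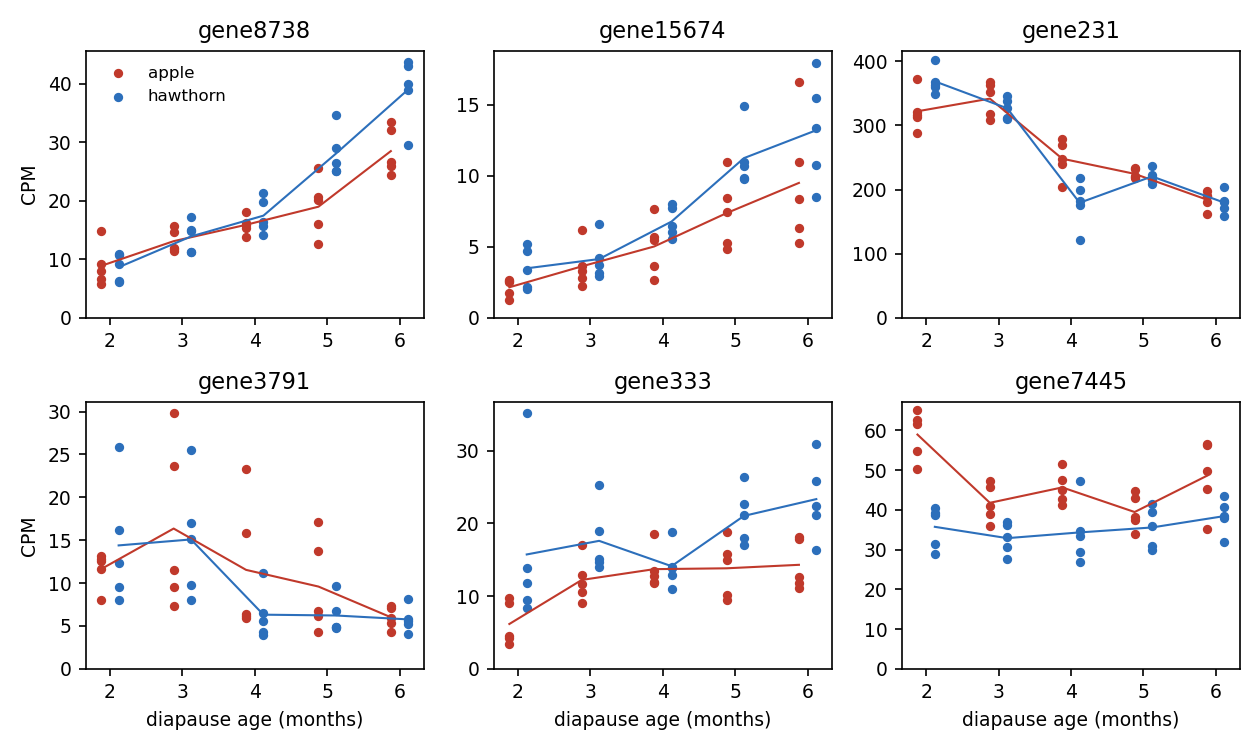
CPM of 6 named members against diapause age, with 1 point per library and lines through the means of 5 libraries, apple in red and hawthorn in blue; each panel has its own axis from 0. At 6 months gene8738 reached 29.5 to 43.7 CPM in hawthorn, and gene231 lay between 159 and 204 CPM in both hosts.

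With lane as a term, 23 members passed in apple (19 higher, 4 lower; background 2.55%) and 79 in hawthorn (67 higher, 12 lower; background 17.5%). All 6 libraries with a single index are 6-month libraries, 3 of each host, so without them 2 libraries per host were left at that age. Then 46 members passed in apple (41 higher, 5 lower; background 7.17%) and 53 in hawthorn (48 higher, 5 lower; background 8.88%), with medians of 0.29 and 0.24. Within lane 7 alone, which holds 3 hawthorn libraries of 6 months and 2 of 2 months, 120 of 200 members lay higher at 6 months, with a median difference of 0.15. In this lane those 3 libraries have a single index and those 2 a dual index, so age and index type cannot be told apart. There gene15674 differed by 2.26, gene8738 by 2.22, gene231 by −1.14 and gene3791 by −2.01 on the log2 scale. No lane holds apple libraries of both months, so the pooled apple change has no within-lane value.

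Averaged over the 5 months, more members were lower in apple than higher. The test called 57 of 200, 11 higher and 46 lower in apple, against 19.3% of all features (9.77% higher and 9.52% lower). As shares of the set these are 5.5% and 23.0%. In the longest length decile of the other features 10.1% were higher and 14.6% lower. The median log2 difference, apple minus hawthorn, was −0.09 over the members and 0.01 over all features. With the decile trend removed 70 passed, 18 higher and 52 lower, including all 11 and 44 of the 46 (background 21.6%, with 10.2% higher and 11.4% lower). With the smooth trend, in whose fit the members take part, the split was 34 higher and 36 lower with a median of −0.00 (background 21.1%). With lane as a term 2 members passed, both lower in apple (background 0.151%). The median was then −0.08, and for most months host and lane cannot be told apart.

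The members with the largest host differences in this mean were gene7445 and gene123, higher in apple, and gene15123 and gene333, lower in apple. At 2 months gene7445 (8108 bp) read 54.9, 50.4, 61.6, 62.5 and 65.2 CPM in apple and 31.4, 39.2, 40.4, 28.8 and 38.8 CPM in hawthorn, with no overlap. Over the 5 months its log2 difference was 0.39 ± 0.06 (adjusted p = 1.27e-05). Removing the decile trend gave 0.41, and lane as a term gave 0.27 ± 0.11 (adjusted p = 0.286). For gene123 (7782 bp) the mean difference was 0.39 ± 0.09 (adjusted p = 0.00159), and 0.30 ± 0.16 (adjusted p = 0.425) with lane as a term.

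For gene333 (10643 bp) the apple libraries at 2 months read 4.17, 9.01, 9.77, 3.41 and 4.46 CPM and the hawthorn libraries 13.9, 9.52, 8.31, 11.8 and 35.1 CPM. The groups overlap slightly, and hawthorn replicate 5 stands far above the rest. Over the 5 months the log2 difference of gene333 was −0.64 ± 0.13 (adjusted p = 0.000311), and with lane as a term −1.02 ± 0.22 (adjusted p = 0.0367). In gene15123 (9906 bp) the mean difference was −0.65 ± 0.24 (adjusted p = 0.0469). Hawthorn replicate 2 at 3 months held 17.3 CPM of gene15123 and the other 4 libraries of that group 1.33 to 2.12 CPM. Without that library the difference was −0.35 (adjusted p = 0.187). Of the 50 fits that left out 1 library each, 32 lost the call on gene15123, with differences from −0.66 to −0.35.

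Month by month, the host difference among the long transcripts changed sign, with apple higher in the called members at 4 months and mostly lower at 5. At 2 months 12 members passed, 4 higher and 8 lower in apple (background 3.15%, with 1.68% higher and 1.46% lower). At 3 months none passed (edgeR, and 0 with DESeq2), and no feature of the whole table did with edgeR (background 0.0%). At an unadjusted p under 0.05 (edgeR) there were 20 of 200 members and 1274 of 13862 features. At 4 months 13 passed, all higher in apple (background 9.45%, with 3.37% higher and 6.08% lower). At 5 months 24 passed, 1 higher and 23 lower (background 6.45%, with 2.9% higher and 3.55% lower), and at 6 months 2 passed, both lower (background 0.541%, with 0.397% higher and 0.144% lower). The median log2 differences of the members were −0.08, −0.12, 0.18, −0.21 and −0.17 from 2 to 6 months. Without hawthorn replicates 2 and 4 at 4 months the median there was 0.03, with 110 of 200 members above 0.

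The mean length slopes run beside these values. They were −0.02, −0.00, 0.01, −0.02 and 0.04 in apple and −0.06, 0.02, −0.13, 0.09 and 0.07 in hawthorn, so apple had the higher slope at 2 and 4 months and hawthorn at 3, 5 and 6 months. The members' median difference had the sign of the slope difference at every month but 2 months. With the decile trend removed, 18 members passed at 2 months (5 higher, 13 lower; background 4.97%, with 1.83% and 3.14%). At 3 months none passed (background 0.0649%), with 21 of 200 members and 1435 of 13862 features at an unadjusted p under 0.05 (edgeR). At 4 months 12 passed (2 higher and 10 lower, background 6.8%, with 1.86% and 4.93%). At 5 months 24 passed (9 higher, 15 lower; background 5.78%, with 2.92% and 2.86%), and at 6 months 2 (both lower; background 1.25%, with 0.866% and 0.382%). Of the 13 members higher in apple at 4 months, 2 were still higher, and of the 23 lower at 5 months, 15 were still lower. The medians were then −0.11, −0.06, −0.04, −0.02 and −0.08. With the straight trend removed the calls at 5 months were 13 higher and 8 lower, with a median of 0.08 (background 5.38%). With the smooth trend removed 2 members passed at 6 months, both higher in apple and neither of them called without it (background 1.09%). With lane as a term none passed at any single month (edgeR, with backgrounds of 0.00721%, 0%, 0%, 0.00721% and 0.159% from 2 to 6 months). At an unadjusted p under 0.05 (edgeR) there were 13, 5, 11, 27 and 44 of the 200 members. Over the 13862 features tested the like counts were 1057, 584, 1531, 1581 and 1730. The lane fit gave medians of 0.01, −0.06, 0.18, −0.30 and −0.21. At 4, 5 and 6 months these were close to or larger than those without it, while the background was lower at each. In each month from 2 to 5 the hosts shared no lane. There the fit takes lane differences from other groups, so its medians cannot separate host from lane.

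These monthly counts moved when single libraries were left out, and so did the counts over all features. Of the fits that left out 1 library, those listed changed the count by more than a factor of 1.5. At 4 months the count was 0 without hawthorn replicates 2 and 4 together, and 6 features passed in the whole table against 1310 with them. Without them, 9 of 200 members and 1158 of 14342 features were at an unadjusted p under 0.05 (edgeR). Leaving out 1 library gave 61 without hawthorn replicate 1, 1 without hawthorn replicate 4, 3 without hawthorn replicate 2, and 4, 4, 4 and 5 without apple replicates 1 to 4. The backgrounds in these fits were 23.5%, 2.39%, 2.41%, 5.3%, 5.55%, 5.16% and 6.91% in the same order. At 2 months it was 19 without apple replicate 2, 7, 3 and 4 without apple replicates 1, 4 and 5, and 5 and 4 without hawthorn replicates 1 and 4, with backgrounds of 4.5%, 1.94%, 0.698%, 0.769%, 1.19% and 1.08%. At 5 months it was 15, 12 and 7 without apple replicates 1, 3 and 4, and 10, 13 and 15 without hawthorn replicates 3, 4 and 5, with backgrounds of 4.11%, 3.11%, 1.99%, 2.76%, 3.18% and 3.68%. Within that factor, the count at 5 months rose to 30 without apple replicate 2. At 6 months the count was 11 without apple replicate 2, 4 without hawthorn replicate 5 and 0 or 1 without any other library, with backgrounds of 2.87%, 0.76% and 0.0427% to 0.633%.

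At 2 months gene7445 and gene123 were the largest of the higher members, with log2 differences of 0.72 ± 0.13 (adjusted p = 0.00254) and 0.84 ± 0.20 (adjusted p = 0.0137). The libraries of gene123 read 18.1, 11.6, 15.4, 23.4 and 17.6 CPM in apple and 7.36, 12.2, 11.6, 6.63 and 10.2 CPM in hawthorn, with a slight overlap. Without apple replicate 4, hawthorn replicate 1 or hawthorn replicate 4, gene123 was no longer called (differences of 0.71 to 0.76, adjusted p up to 0.0713). Lower in apple were gene333, at −1.35 ± 0.28 (adjusted p = 0.00756), and gene309, at −1.05 ± 0.25 (adjusted p = 0.0164). Without hawthorn replicate 5 the difference in gene333 was −0.83 (adjusted p = 0.0628). The libraries of gene309 read 2.90, 1.74, 2.70, 1.53 and 1.93 CPM in apple and 4.82, 5.42, 4.63, 3.55 and 4.03 CPM in hawthorn, without overlap, and the call was lost without apple replicate 4 or 5 (adjusted p up to 0.0662).

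At 4 months the largest differences were those of gene18998 and gene17732. In gene18998 the apple libraries read 3.03, 3.21, 3.48, 4.98 and 3.54 CPM and the hawthorn libraries 3.02, 0.449, 1.18, 0.246 and 2.84 CPM. In gene17732 they read 37.6, 26.1, 29.6, 38.7 and 36.7 CPM in apple and 33.6, 7.01, 21.5, 5.29 and 27.9 CPM in hawthorn. For both members the lowest values are those of hawthorn replicates 2 and 4. The log2 differences were 1.202 ± 0.38 in gene18998 (adjusted p = 0.0364) and 0.82 ± 0.26 in gene17732 (adjusted p = 0.0404), and without these libraries 0.61 and 0.26 (adjusted p = 0.713 and 0.794). Counts of gene18998 and gene17732 were not whole in 96% of the libraries.

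At 5 months gene8535 was the 1 member higher in apple, at 66.6, 64.5, 58.7, 62.6 and 67.1 CPM against 50.8, 49.4, 50.8, 57.3 and 43.1 CPM in hawthorn. The groups did not overlap, and the log2 difference of gene8535 was 0.35 ± 0.10 (adjusted p = 0.0335), or 0.55 ± 0.10 with the decile trend removed. The call on gene8535 was lost in 7 of 10 fits that left out 1 library, those without apple replicate 1, 4 or 5 or hawthorn replicate 1, 2, 3 or 5 (adjusted p up to 0.0986). The largest of the lower members was gene1060, with 5.61, 8.07, 5.75, 2.50 and 5.98 CPM in apple and 15.03, 12.1, 13.7, 12.6 and 15.7 CPM in hawthorn. Its libraries did not overlap, and the log2 difference of gene1060 was −1.31 ± 0.25 (adjusted p = 0.00197). Next came gene13951, with 50.4, 48.2, 39.0, 25.4 and 34.5 CPM in apple and 73.1, 72.5, 98.6, 68.8 and 69.1 CPM in hawthorn. All hawthorn libraries lay higher, and the difference of gene13951 was −0.95 ± 0.19 (adjusted p = 0.00336), or −0.76 ± 0.17 with the decile trend removed.

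Members gene1060 and gene13951 also rose from 2 to 6 months in both hosts. In gene13951 the log2 change was 1.54 ± 0.20 in apple (adjusted p = 2.74e-07) and 1.77 ± 0.20 in hawthorn (adjusted p = 1.31e-08). In gene1060 it was 1.11 ± 0.25 (adjusted p = 0.00123) and 1.15 ± 0.25 (adjusted p = 0.000635).

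At 6 months the members called were gene8895 and gene2755, both lower in apple. For gene8895 (14635 bp) the libraries read 36.9, 43.3, 31.0, 40.2 and 30.4 CPM in apple and 60.1, 61.7, 62.5, 52.2 and 52.1 CPM in hawthorn. For gene2755 (13728 bp) they read 15.5, 18.5, 12.2, 11.7 and 12.6 CPM in apple and 20.9, 24.6, 24.1, 24.0 and 18.4 CPM in hawthorn. The groups of gene8895 did not overlap, and those of gene2755 touched. The log2 differences were −0.67 ± 0.14 in gene8895 (adjusted p = 0.0114) and −0.66 ± 0.17 in gene2755 (adjusted p = 0.0481). With the decile trend removed they were −0.58 (adjusted p = 0.0317) and −0.57 (adjusted p = 0.0397). Leaving out 1 library ended the call on gene8895 in 3 of 10 fits, when apple replicate 3, apple replicate 5 or hawthorn replicate 3 was removed, and on gene2755 in 8 of 10, all but those without apple replicate 2 or hawthorn replicate 5. Within lane 7, with 4 apple and 3 hawthorn libraries, gene8895 differed by −0.63 and gene2755 by −0.70, and 63 of 200 members lay higher in apple.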

How the data were processed

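The 50 deposited tables, 1 per library, give an estimated (expected) count, a TPM and a length per feature. Per the labels' protocols, the authors sequenced stranded mRNA libraries as 100-base single-end reads, mapped them to the Rhagoletis zephyria genome with STAR and estimated counts with RSEM. Versions, annotation and build are not stated there. The TPM values deposited by the authors served only for levels between features, and unmapped reads do not appear.

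These expected counts were taken to the nearest whole number (total shifted by at most 0.00044% per library) and filtered with edgeR 4.0.16 filterByExpr (minimum count 10, total 15), leaving 13862 features with at least 99.9% of counts. All 200 members were among them. Counts were scaled by TMM and fitted with 1 mean per host and month over all 50 libraries by the quasi-likelihood test, with Benjamini-Hochberg adjustment over all features in each of 9 comparisons and calls at an adjusted p under 0.05. All adjusted p-values in the text come from edgeR unless DESeq2 (1.42.0) is named. The standard error is the log2 fold change divided by the square root of F. Deviations used log2 CPM with a prior count of 2.

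Members named by identifier are the 5 longest, the 3 with the most counts per kb and, per comparison, up to 2 called members in each direction with the largest change and a mean log2 CPM of at least 1. The members and lists were chosen with earlier results of these data known. Alternatives were DESeq2, other scaling, no filter, 4 treatments of the length trend (1 of them, the decile trend, added after seeing the data), lane, index type, the replicate block and leaving out libraries. No 2 libraries of a group agreed within sampling noise (chi-square per degree of freedom at least 10.4).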

Additional observations from a re-analysis of the deposited data

Results flagged for a closer look

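In groups of 5 libraries, a library was marked when its gap to the nearest other exceeded 0.71 of the group's range, Dixon's limit. Of 270 groups examined 19 were marked (7.04%), and chance marks about 1 in 20. The set as a whole was marked in hawthorn at 6 months, where replicate 5 gave the members 1.07% of its counts and a median deviation of −0.14, below the other 4 libraries. Its length slope was −0.08, and the other 4 libraries had slopes of 0.10 to 0.11.

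Hawthorn replicate 4 at 4 months, already apart, was highest for gene1450 at 8.002 CPM. Single high values were 11.7 CPM of gene1060 (apple, 4 months, replicate 4), 41.5 and 98.6 CPM of gene13951 (hawthorn, 4 months, replicate 1, and 5 months, replicate 3), 3.38 CPM of gene14361 (apple, 5 months, replicate 2) and 1567 CPM of gene1476 (apple, 6 months, replicate 2). Of the marks, 3 fell on gene15123, at 4.82 CPM (apple, 2 months, replicate 5), 5.91 CPM (hawthorn, 2 months, replicate 2) and 17.3 CPM (hawthorn, 3 months, replicate 2). Further high values were 14.9 CPM of gene15674 (hawthorn, 5 months, replicate 3), 4.98 CPM of gene18998 (apple, 4 months, replicate 4) and 11.2 CPM of gene2755 (apple, 2 months, replicate 3). For gene333 they were 18.5 CPM (apple, 4 months, replicate 1) and 35.1 CPM (hawthorn, 2 months, replicate 5), and for gene4121 520.3 CPM (hawthorn, 3 months, replicate 5). The low values were 7.43 CPM of gene1060 (apple, 6 months, replicate 1) and 31.4 CPM of gene13951 (apple, 4 months, replicate 3).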

How the results depend on the processing

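Member counts are given as calls out of 200, and the count over all features moved with most of them. Averaged over months, the 57 host calls became 2 with lane as a term and 32 without the libraries with a single index (all features from 2673 to 21 and 1399). At 2 months the 12 calls became 24 with the length slope as a term, 19 with the straight trend removed, 22 without hawthorn 4-month replicates 2 and 4, and 0 with lane, while all features went from 436 to 1048, 586, 1196 and 1. At 4 months the 13 became 3 with no count filter, 20 with DESeq2, 34 (all lower in apple) with the straight trend removed, and 0 with the slope term (24 at an unadjusted p under 0.05), with lane or without the 2 hawthorn libraries (all features from 1310 to 833, 1856, 1472, 4, 0 and 6). At 5 months the 24 became 9 with the slope term, 38 without those libraries and 0 with lane (all features from 894 to 370, 1855 and 1). At 6 months the 2 became 1 with no count filter, 10 with DESeq2, 4 with the slope term, 7 without those libraries, and 0 with the straight trend removed (47 at an unadjusted p under 0.05), with lane or after removal of single-index libraries (unadjusted p under 0.05 in 2), with all features at 75 and then 42, 324, 319, 323, 127, 22 and 0. All features at an unadjusted p under 0.05 (edgeR) numbered 1687 of 13862 with the slope term at 4 months. At 6 months they numbered 2199 of 13862 with the straight trend removed and 452 of 14701 without single-index libraries. From 2 to 6 months, lane took the apple count from 69 to 23, and leaving out single-index libraries took the hawthorn count from 80 to 53 (all features from 2164 to 354 and from 2890 to 1305). The straight and smooth trends split the hawthorn calls into 41 and 47 higher and 56 and 52 lower, and the apple calls into 43 and 42 higher and 28 and 35 lower. The straight line overstates the long end and the smooth trend was fitted with the members in it. The decile trend is flat beyond 5124 bp, which is shorter than every member.

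Leaving out 1 library gave 48 to 69 calls averaged over months, 3 to 19, 0, 1 to 61, 7 to 30 and 0 to 11 at 2, 3, 4, 5 and 6 months, 53 to 69 in apple and 71 to 81 in hawthorn from 2 to 6 months, and 0 for the host difference in that change. The replicate block, which rests on numbers that do not pair the samples (same-number correlations of −0.31 to 0.27), gave 57 calls averaged over months, 12, 0, 13, 23 and 1 by month, 68 in apple and 81 in hawthorn. A single named value changed direction with a call in either fit: gene978 averaged over months was −0.05, and 0.18 (adjusted p = 0.0461, edgeR) with the smooth trend removed. Of the other named values, 755 kept direction and side of the threshold, 81 lost the call and 30 gained it. A further 46 changed direction without a call in either fit. The causes were not tested.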
